A study of Sus scrofa with 8 samples.

Results

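EPCAM, CDH1, WFDC2, AQP9 and CTNNB1 are genes of epithelial adhesion and of the ducts that carry sperm, and they were read in the testes of 8 boars. EPCAM is a membrane glycoprotein that holds epithelial cells together. CDH1 is E-cadherin, whose tail binds CTNNB1, beta-catenin, at the adherens junction. CTNNB1 also carries the Wnt signal to the nucleus and is made in nearly all cells. WFDC2 is a secreted protein of the whey acidic protein family, first known from the epididymis. AQP9 is a channel for water and small solutes such as glycerol, and lines the efferent ducts and the epididymis of several mammals. In the testis itself EPCAM and E-cadherin are also found on spermatogonia of rodents, so that neither marks duct epithelium alone.

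The members were taken by name, as the array probes whose RefSeq accession belongs to one of the 5 genes, and none of them is named in the study's supplementary list of differing probes. They were selected on earlier values of these arrays, the low signals of EPCAM and other epithelial genes in the control boar m_9502, so the levels of that boar are given as a description. The 5 genes have 8 probes of the 43603 on the array. EPCAM has 3 probes, CDH1 has a pair, and the other genes have 1 each. All 8 were among the 36982 probes counted as present, which means well above background on 2 or more arrays out of 4 for either diet. This did not need a difference between the diets, but CDH1 probe A_72_P164631 passed through the control diet only. It was well above background on 2 control arrays and 0 supplemented arrays. No spot of a member was saturated.

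All boars were of the Large White breed and were fed from month 1 to month 10 of age. A standard diet supplemented with folate, betaine, choline, methionine and the vitamins B6 and B12 went to m_9499, m_9527, m_9597 and m_9599, and the standard diet alone to m_9502, m_9528, m_9598 and m_9600. Each testis RNA was hybridized to 1 Agilent array with a single dye. The full brothers m_9597, m_9598, m_9599 and m_9600 were all on slide 1 and the other boars on slide 2, so that the litter of brothers and the slide cannot be told apart, while each slide held both diets. The comparison asks whether the supplement changed gene expression in the testis.

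The median raw signal of an array lay between 108 and 192.5, and 76.3% to 86.5% of the spots were well above background. The lowest median signals were those of m_9527 and m_9502. The 9 testis genes looked for, such as PRM1, ACR, INSL3 and AMH, each had a probe well above background on all 8 arrays. Boar m_9502 stood farther from its group than other boars over the whole array. In it, 10.3% of the present probes differed at least 2-fold from the mean of its diet's other boars, against 1.04% to 7.78% for the other boars. Values are given on a log2 scale after quantile normalization of the arrays, and levels of different probes cannot be set against each other.

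EPCAM differed more between boars than nearly all other probes. The EPCAM probe A_72_P420519 had a log2 signal of 9.29 in m_9597, 12.24 in m_9599, 10.58 in m_9499 and 10.56 in m_9527 on the supplemented diet. On the control diet it had 12.80 in m_9598, 12.06 in m_9600, 10.48 in m_9502 and 11.93 in m_9528. The lowest and the highest boar were brothers on different diets, 11.4-fold apart, and the groups overlapped. Only 0.576% of the present probes had an SD over the 8 boars as large as this probe. In the raw signal, before any normalization, its range was 18.3-fold, from 536.5 to 9840.5, and the lowest value was still 28.2 times its local background.

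The other EPCAM probes gave the same order of boars but for m_9499 and m_9527, which changed places in 1 of them. Probe A_72_P146646 ran from 9.65 in m_9597 to 13.34 in m_9598, and probe A_72_P124201 from 7.83 to 11.11 in the same boars. Over the 8 boars the 3 probes correlated with each other at a Pearson r of 0.982 to 0.991 and a Spearman rho of at least 0.976. Without the boars farthest from the median, r stayed between 0.958 and 0.998. The probes share the RNA and the array of each boar, and these values are a description of their agreement. After each probe was centred on its own mean, the SD between the 3 probes of a boar was 0.02 to 0.23, which is small against the range of their mean, 11.3-fold.

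**Figure D1:**
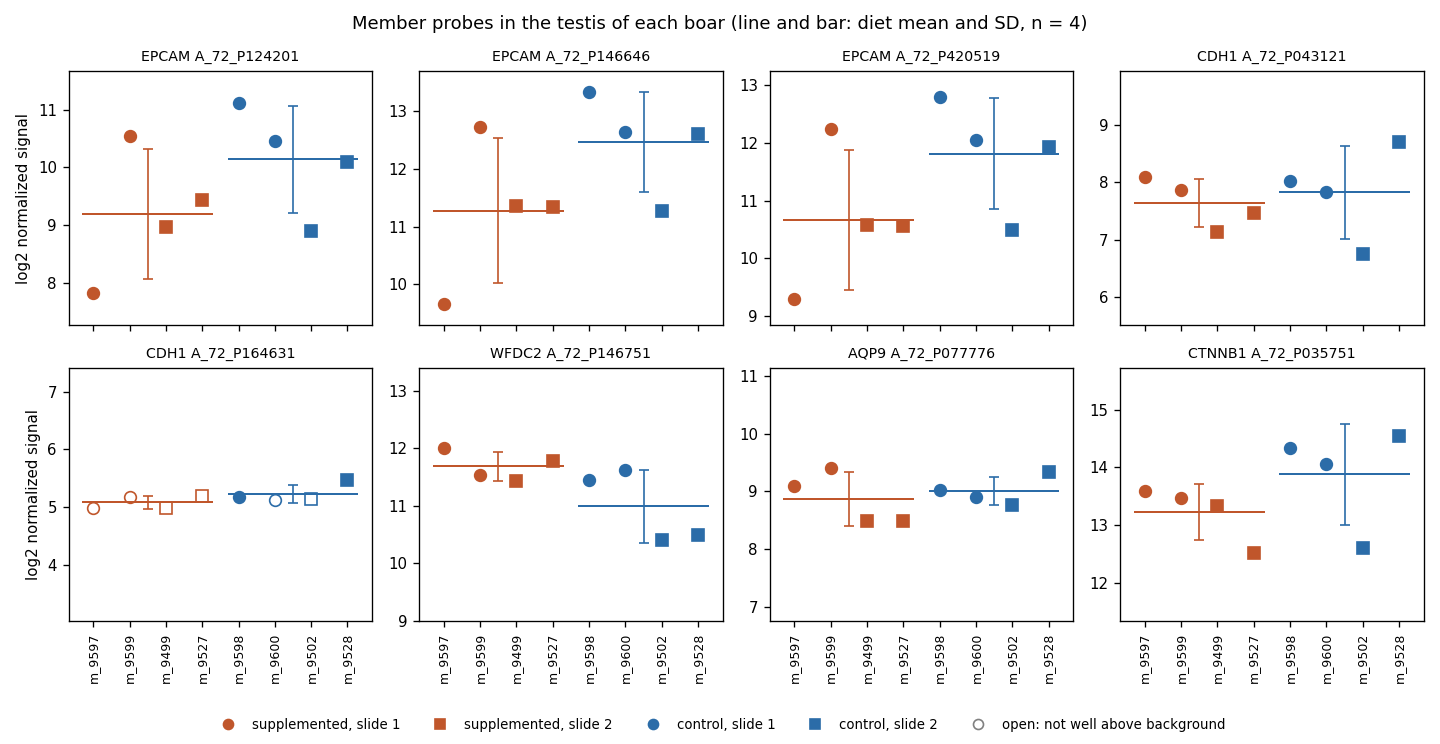
Log2 normalized signal of the 8 member probes (vertical axes, each spanning the same number of log2 units) in each boar (horizontal axis), in orange on the supplemented and in blue on the control diet. Circles are boars of slide 1 and squares of slide 2, open symbols are spots not well above background, and lines with bars give the diet mean and SD of 4 boars; m_9597 lies lowest and m_9598 highest in all 3 EPCAM probes.

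Taken as the mean of its 3 probes, EPCAM was highest in m_9598 at 12.42, followed by m_9599 at 11.84, m_9600 at 11.72 and m_9528 at 11.55. The boars m_9527, m_9499 and m_9502 followed at 10.45, 10.30 and 10.22, and m_9597 was lowest at 8.92. The boars thus formed 4 with high values, 3 of them on the control diet, then 3 close together, 2 of them on the supplemented diet, and 1 far below. Neighbours in this order among m_9599, m_9600 and m_9528, and among the middle 3, were closer to each other than the largest SD between probes, 0.23. There was 1 array per boar, so the technical error of a boar's value is not known. In a piece of whole testis, fewer cells of a type and less RNA per cell cannot be told apart.

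Boars of the same diet and the same litter could be far apart in EPCAM. Its mean was 7.55-fold higher in m_9599 than in m_9597, both brothers on the supplemented diet. The brothers on the control diet, m_9598 and m_9600, were 1.62-fold apart. On slide 2 the control boars m_9528 and m_9502 were 2.52-fold apart, while the supplemented boars m_9499 and m_9527 differed by 0.15 on the log2 scale.

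Boar m_9502, for which the genes were put together, was second lowest of the 8 boars in each EPCAM probe, above m_9597. Set against the remaining control boars its mean log2 values differed by -1.78, -1.59 and -1.66 in the 3 probes. In this boar between 0.627% and 1.1% of all present probes were as low as that. From the mean of the supplemented boars, which the low m_9597 pulls down, m_9502 differed by -0.18, 0.00 and -0.29, and it lay below 3 of these boars but close to m_9499 and m_9527. The gap of the mean of the 3 probes, -1.68, was -2.26 in the raw signal, in which the array of m_9502 was among the dimmest.

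The low value of m_9597 was rarer for the boar concerned. Against the other supplemented boars its EPCAM probes differed by -1.83, -2.16 and -1.82, and only 0.0568% to 0.0865% of the present probes were as low in that boar. Such shares depend on the spread of each array. At least 2-fold off the other boars of the diet were 1.04% of the present probes in m_9597 and 10.3% in m_9502. The other members did not follow in m_9597. There CDH1 probe A_72_P043121 was 0.60 above the other supplemented boars, CTNNB1 0.49, WFDC2 0.42 and AQP9 0.31. UCHL1, a marker of spermatogonia in the pig, was at 13.47 in m_9597, between 13.10 and 13.67 in the other supplemented boars, and the median of the 5 spermatogonia probes stood at 0.31 in m_9597 and at -0.30 in m_9502, relative to the mean of all boars. Whether the number of spermatogonia has a part in the EPCAM values was not tested.

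**Figure D2:**
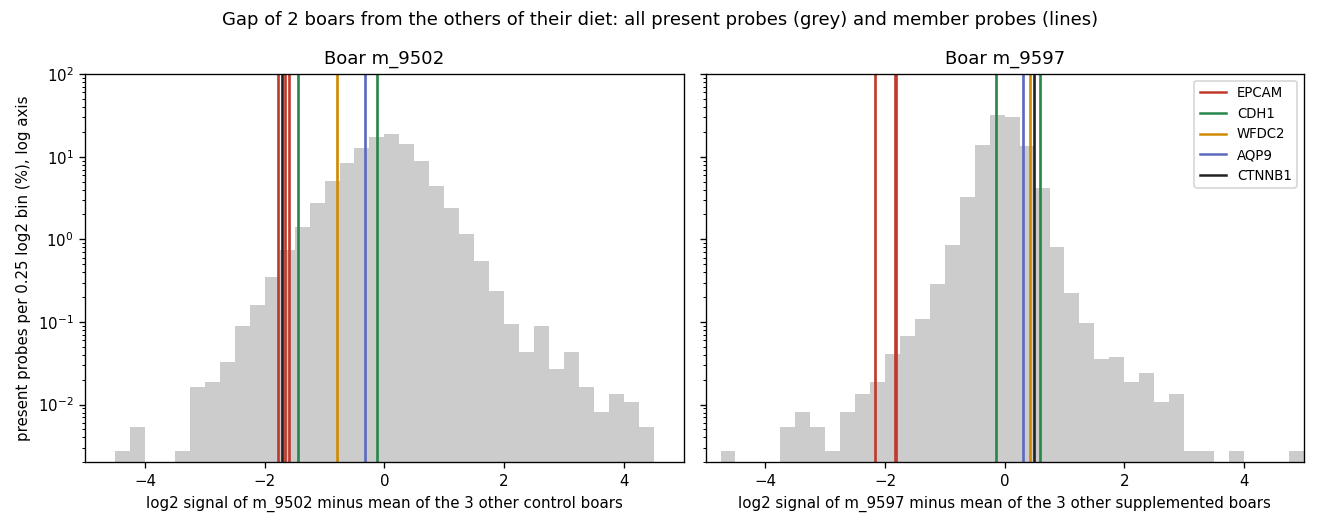
Distribution over all present probes (grey bars, percent of probes per bin on a log axis) of the log2 gap between 1 boar and the mean of the other boars of its diet, for m_9502 on the left and m_9597 on the right, with the 8 member probes as coloured lines. The 3 EPCAM lines lie at -1.78 to -1.59 in m_9502, among other members, and at -2.16 to -1.82 in m_9597, apart from the other members.

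CDH1 was measured well by 1 of its probes. Probe A_72_P043121 had a log2 signal of 8.09 in m_9597, 7.87 in m_9599, 7.14 in m_9499 and 7.46 in m_9527, and of 8.01 in m_9598, 7.83 in m_9600, 6.75 in m_9502 and 8.70 in m_9528. The extremes, 3.89-fold apart, were both control boars of slide 2, and the boars of the other diet lay between them. The second probe, A_72_P164631, was well above background only in m_9598 and m_9528, with raw signals of 44 and 58 against local backgrounds of 25 and 23. Its values spanned 4.98 to 5.46, and since it was not well above background on any supplemented array, no diet difference is given for it. The pair correlated at r = 0.561 and rho = 0.299 over the 8 boars, and at r = 0.232 without the boars farthest from the median, so the second probe adds little to the first.

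CTNNB1, the binding partner of the E-cadherin tail, had a wide range of its own. Its probe A_72_P035751 read 13.59 in m_9597, 13.47 in m_9599, 13.34 in m_9499 and 12.51 in m_9527 on the supplemented diet, and 14.33 in m_9598, 14.05 in m_9600, 12.61 in m_9502 and 14.55 in m_9528 on the control diet. Of the control boars, 3 lay above all supplemented boars, and m_9502 lay below 3 of them. The range was 4.10-fold, and 4.11% of the present probes had as large an SD.

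The order of the boars in CTNNB1 was that of the main axis of the whole array. The first principal component of all present probes held 53.2% of the variance between boars, and CTNNB1 correlated with it at r = 0.969 over the 8 boars. The boars at its ends, m_9527 and m_9502 at one and m_9598 and m_9528 at the other, also have the lowest and the highest median raw signals, 108 and 116 against 192.5 and 174. Of the present probes, 16.8% had an absolute r of at least 0.9 with this component. The median absolute r of the present probes with it was 0.644. CDH1 probe A_72_P043121 lay above that at r = 0.820, AQP9 was nearer to it at r = 0.714, and the EPCAM probes were below it at 0.445 to 0.548. WFDC2 was at -0.22. The part of array brightness in the levels of CTNNB1 was not tested.

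**Figure D3:**
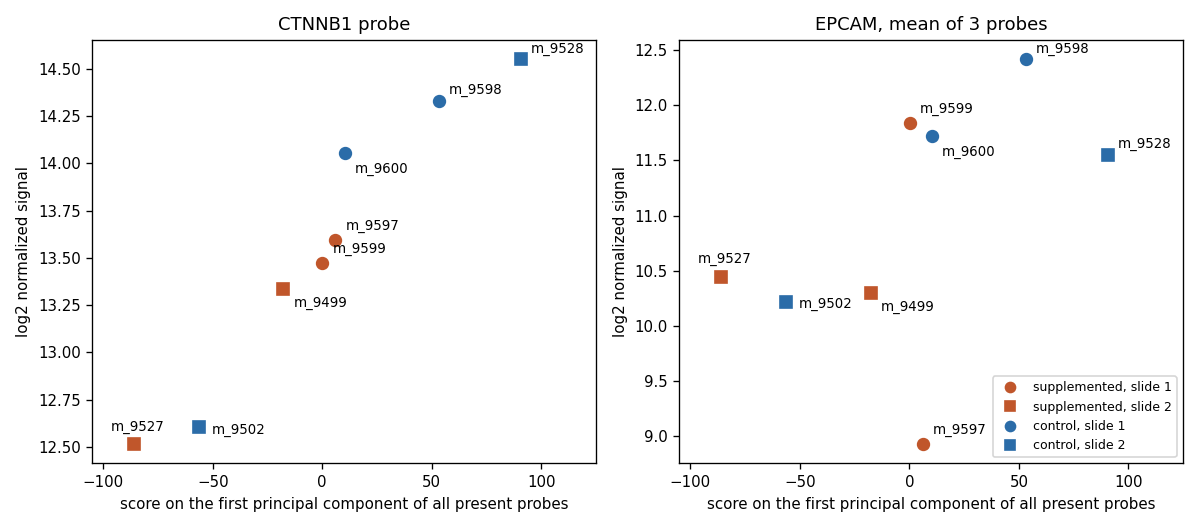
Score of each boar on the first principal component of all present probes (horizontal axis) against the log2 signal of the CTNNB1 probe on the left and of the mean of the 3 EPCAM probes on the right. CTNNB1 rises along the axis from 12.51 in m_9527 to 14.55 in m_9528, while m_9597, lowest in EPCAM at 8.92, lies in the middle of the axis.

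WFDC2 went its own way. Its probe A_72_P146751 had a log2 signal of 11.995 in m_9597, 11.53 in m_9599, 11.42 in m_9499 and 11.77 in m_9527, and of 11.45 in m_9598, 11.62 in m_9600, 10.40 in m_9502 and 10.495 in m_9528. The supplemented boars lay close together and above the control boars of slide 2, and overlapped with those of slide 1. The boar with the lowest EPCAM, m_9597, had the highest WFDC2. Between these genes r was -0.19 and rho -0.05 over the 8 boars.

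AQP9 varied little. Probe A_72_P077776 had 9.10 in m_9597, 9.41 in m_9599, 8.48 in m_9499 and 8.48 in m_9527, and 9.02 in m_9598, 8.90 in m_9600, 8.76 in m_9502 and 9.34 in m_9528. The whole range was 1.90-fold, and 37.9% of the present probes had as large an SD. On slide 1 both supplemented boars were above both control boars, by 0.30 on average, and on slide 2 both were below, by -0.57. The test of this difference between the slides, an interaction in limma across all present probes, gave an adjusted p = 0.99996. WFDC2, with a diet difference of 0.23 on slide 1 and 1.15 on slide 2, had an adjusted p = 0.99996 in the same limma fit. Before adjustment both were under 0.05, as were 738 of the 36982 present probes, and after adjustment none was.

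**Figure D4:**
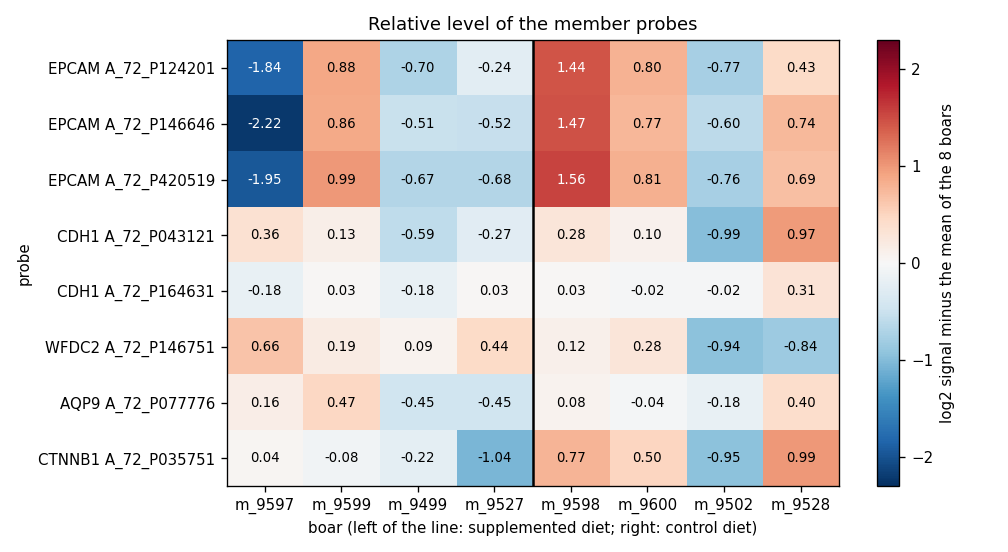
Log2 signal of each member probe minus its mean over the 8 boars (colour and printed value), with the probes as rows and the boars as columns, supplemented diet left and control diet right of the line. The 3 EPCAM rows agree from boar to boar, from -2.22 in m_9597 to 1.56 in m_9598, while WFDC2 is highest in m_9597 and CTNNB1 and CDH1 are highest in m_9528.

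No pattern common to all 5 genes held across the arrays. Over the 8 boars EPCAM, CDH1, AQP9 and CTNNB1 correlated positively in every pair, while WFDC2 did not go with them. CDH1, as the mean of its pair of probes, went with CTNNB1 at r = 0.795 and rho = 0.857 and with AQP9 at r = 0.740 and rho = 0.755. Without the boars farthest from the median these r were 0.543 and 0.793. EPCAM went with CTNNB1 at r = 0.556 and rho = 0.476, with CDH1 at 0.428 and 0.452 and with AQP9 at 0.383 and 0.371. Without m_9597 and m_9598, the boars at the ends of EPCAM, these r were 0.760, 0.759 and 0.839. The CDH1 mean includes its dim probe. CDH1 probe A_72_P043121 alone correlated with the single EPCAM probes at r = 0.312 to 0.388 and rho = 0.262 to 0.286. With CTNNB1 it had r = 0.817 and rho = 0.810, and with AQP9 0.735 and 0.778. WFDC2 correlated with the other 4 genes at r between -0.19 and -0.03, but without m_9502 at -0.48 with EPCAM, -0.67 with CDH1, -0.38 with AQP9 and -0.61 with CTNNB1. These are 10 pairs over the same 8 arrays and are given as a description.

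Few genes had the pattern of EPCAM. Of the present probes outside the members, 9 correlated with its mean at r of at least 0.9, against 32 for WFDC2, 122 for AQP9, 552 for CDH1 and 2978, or 8.05%, for CTNNB1. The named genes most like EPCAM were PGLYRP2, which cleaves peptidoglycan of bacteria (r = 0.945, rho = 0.881), LTA4H, an enzyme of leukotriene synthesis (0.872, 0.762), and HPS4, a gene of lysosome-related organelles (0.856, 0.833). PGLYRP2 (A_72_P088191) was also lowest in m_9597, at 7.83, and highest in m_9598, at 9.84. The LTA4H and HPS4 probes had ranges of 0.40 and 0.36 only, and the latter was well above background on 6 arrays. With the background-subtracted signal or another normalization, r stayed between 0.934 and 0.959 for PGLYRP2 and was as low as 0.660 for LTA4H and 0.0113 for HPS4.

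The genes most like CTNNB1 were HIF1A, the hypoxia factor (r = 0.998), ARF4, a small GTPase of the Golgi (0.997), and CAV2, a caveolin (0.996). All 3 were low in m_9502, by -2.31, -1.83 and -2.59 against the other control boars, where CTNNB1 was lower by -1.71. For CDH1 they were SSTR2, a somatostatin receptor (r = 0.966, well above background on 2 arrays), P2RY2, a nucleotide receptor (0.965), and BLOC1S6 (0.964), of which SSTR2 and P2RY2 were at 0.804 and 0.817 with the background-subtracted signal. For WFDC2 they were SAMD5 (0.938), MPDZ, a scaffold of tight junctions (0.925), and KCNH2, a potassium channel (0.925). Without the boars farthest from the median these were 0.348, 0.747 and 0.527, and with the background-subtracted signal MPDZ and KCNH2 were at 0.630 and 0.680. For AQP9 they were RNF4, a ubiquitin ligase (0.979), TPM3, a tropomyosin (0.948), and HTR1F, a serotonin receptor (0.941).

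The diets were compared with limma across all present probes. Of the 8 member probes, 1 had a P-value under 0.05, where 1.86% of all present probes had one. The 8 include CDH1 probe A_72_P164631, which was present through the control diet only. None of the 8 had an adjusted P-value under 0.05, and neither had any present probe (0.00%). In no member probe did all boars of one diet lie above all boars of the other, which was the case in 1.13% of the present probes. The median size of the diet difference was 0.17 on the log2 scale over all present probes.

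The probe with P under 0.05 was that of WFDC2. It had a log2 signal of 11.68 ± 0.26 (SD, n = 4) on the supplemented diet and 10.99 ± 0.64 (SD, n = 4) on the control diet. The difference was 0.69 (standard error 0.30) or 1.61-fold, with an adjusted p = 0.840 from limma and a 95% interval from 0.02 to 1.35, and 0.938% of the present probes were higher with P under 0.05. The exact two-sided permutation test over the boars gave p = 0.143, where 4 against 4 boars can reach 0.0286. Without m_9502 the difference was 0.49 and without m_9597 0.58, and it was then no longer under 0.05 before adjustment (adjusted p = 0.377 and adjusted p = 0.810 from limma). With the slide as a block it was 0.69 (adjusted p = 0.797 from limma). By slide it was 0.23 and 1.15.

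EPCAM was lower on the supplemented diet by more than 2-fold in 2 of its probes, a size that 0.516% of the present probes reached in either direction, but the spread between boars was as large. Probe A_72_P420519 had 10.67 ± 1.21 (SD, n = 4) against 11.82 ± 0.97 (SD, n = 4). Its difference was -1.15 (standard error 0.63), with a 95% interval from -2.56 to 0.25 and an adjusted p = 0.840 from limma. The other probes differed by -1.19, with an interval from -2.58 to 0.20, and by -0.95, with an interval from -2.28 to 0.38. The exact permutation test gave p = 0.286 for each of the 3 probes.

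The size of the EPCAM difference depended on single boars, while its sign held with each boar left out. Without m_9597 it was -0.69, -0.65 and -0.50 in the 3 probes A_72_P420519, A_72_P146646 and A_72_P124201, and no longer past 2-fold. It was largest without m_9599, the supplemented boar with the highest EPCAM, at -1.68, -1.68 and -1.40. The 3 probes were then under 0.05 before adjustment but not after it in limma. In that fit 1.91% of all present probes were under 0.05 before adjustment. Without m_9502 the EPCAM difference was -1.60, -1.59 and -1.37. The 3 probes and CTNNB1 were then under 0.05 before adjustment, with adjusted p-values of 0.279 to 0.284 in limma. The genes were selected on low signals in m_9502, so leaving this boar out moves these differences down by construction. The values without it are a description only. In that fit 16.6% of all present probes were under 0.05 before adjustment (9.09% lower and 7.55% higher on the supplemented diet) and 0.00270% after it, so the members' count there is read against a far larger share. The mean of the 3 probes differed by -1.69 on slide 1, where m_9597 and m_9598 are, and by -0.51 on slide 2.

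CTNNB1 had 13.23 ± 0.49 (SD, n = 4) with the supplement and 13.88 ± 0.88 (SD, n = 4) without it. The difference was -0.66 (standard error 0.42) with an adjusted p = 0.840 from limma. It was -0.66 on slide 1 and -0.65 on slide 2. Without m_9502 it was -1.08 (standard error 0.27) with an adjusted p = 0.279 from limma. The 4 supplemented boars then lay below all 3 control boars, as in one direction or the other in 15.6% of all present probes. Since m_9502 was the boar on whose low signals the genes were selected, this shift was built in.

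CDH1 and AQP9 differed little between the diets. CDH1 probe A_72_P043121 had 7.64 ± 0.42 (SD, n = 4) against 7.82 ± 0.81 (SD, n = 4), a difference of -0.18 with a 95% interval from -1.04 to 0.67 and an adjusted p = 0.904 from limma. AQP9 had 8.87 ± 0.46 (SD, n = 4) against 9.01 ± 0.25 (SD, n = 4), a difference of -0.14 with an interval from -0.67 to 0.40 and an adjusted p = 0.889. The sign of the AQP9 difference turned with array weights, to 0.0668, and that of CDH1 without m_9528, to 0.11.

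**Figure D5:**
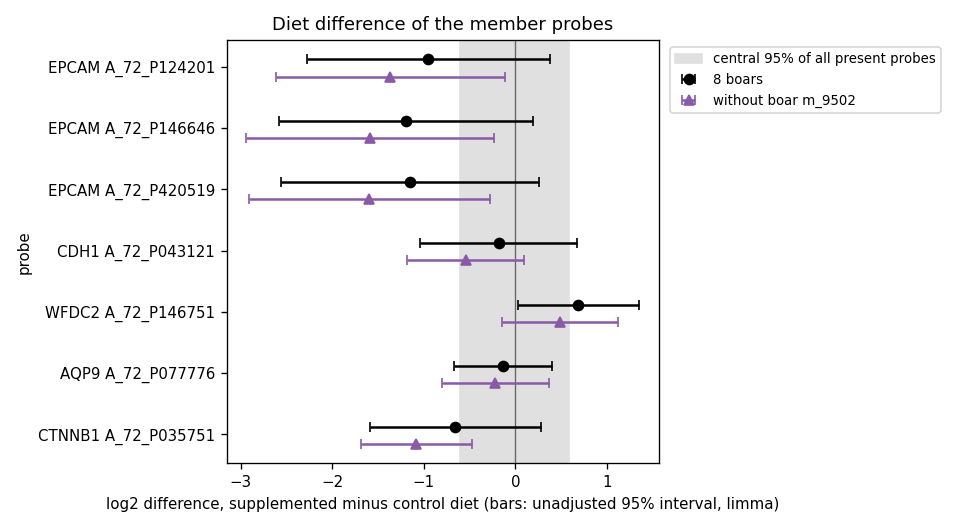
Log2 difference between the supplemented and the control diet (horizontal axis, with unadjusted 95% limma intervals) for each member probe but the dim CDH1 probe (vertical axis), with all 8 boars as circles and without m_9502 as triangles, over the band that holds 95% of all present probes. The EPCAM probes lie at -1.19 to -0.95 with intervals that include 0, and at -1.60 to -1.37 without m_9502. The genes were selected on low signals in m_9502, so the triangles lie lower by construction.

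Genes around the members were read from lists. Of the list of cadherin-catenin junction genes and EPCAM partners, 12 of 38 symbols could be read, with 20 present probes, and none had P under 0.05. Their median diet difference was -0.07, against 0.00 over all present probes. CD9, a tetraspanin found with EPCAM in membrane complexes, had 3 probes with differences of -0.38, -0.31 and -0.07, and JUP, plakoglobin, which can take the place of beta-catenin, had 0.04. Against the other control boars m_9502 was lower in 15 of the 20 probes, with a median of -0.35, but in none of them by as much as 1 on the log2 scale.

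Of the beta-catenin and Wnt list, 9 of 67 symbols could be read, with 11 present probes, and 1 had P under 0.05. That was RSPO1 (A_72_P422659), a secreted enhancer of Wnt signals, with 7.19 ± 0.22 against 6.74 ± 0.28 (SD, n = 4 each) and a difference of 0.45 (adjusted p = 0.840 from limma), where 1.86% of all present probes had P under 0.05. RSPO1 was no longer under 0.05 in 11 of 23 alternatives, among them another scaling of the arrays, each slide alone and the omission of any of 5 boars (m_9597, m_9499, m_9527, m_9598 or m_9528). The median of the list was -0.12. GSK3B, the kinase that marks beta-catenin for breakdown, was not under 0.05 in any probe.

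Of the aquaporins, 6 of 12 symbols had a present probe, 1 each, with a median difference of 0.08 and none with P under 0.05. AQP11 had the largest difference, -0.55 (adjusted p = 0.840 from limma). Of the whey acidic protein family and epithelial protease inhibitors, 4 of 18 symbols had 7 present probes with a median of -0.07. WFDC1, like WFDC2 a member of the family, was the gene with P under 0.05, in probe A_72_P193102 with 14.80 ± 0.31 against 14.01 ± 0.57 (SD, n = 4 each), a difference of 0.80 (adjusted p = 0.840 from limma). The difference was 1.35 on slide 1 and 0.25 on slide 2, and it was no longer under 0.05 before adjustment in 5 of 23 alternatives, which were the background-subtracted signal, slide 2 alone and the omission of m_9499, m_9598 or m_9600. In its second probe, A_72_P426584, the difference was 0.34. The 3 probes of SLPI, a protease inhibitor of mucous surfaces, had differences of -0.48 to -0.25.

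Other genes of the ducts could hardly be read, since only 3 of 30 symbols of the duct epithelium list had a named and present probe. These were CFTR, a chloride channel, with a diet difference of 0.37 (adjusted p = 0.840 from limma), RNASE10 with 0.11 and NPC2 with 0.09. CFTR ran against EPCAM over the 8 boars, at r = -0.87, with its highest value, 10.85, in m_9597 and its lowest, 10.02, in m_9598. The other genes of the list did not, with r = -0.19 for RNASE10 and r = -0.06 for NPC2. The keratins and PAX8 of the list were not analysed here. The 3 genes are also expressed outside the ducts, and neither they nor the members say how much duct tissue a sample held.

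Of the lists of other cell types, none had a probe with P under 0.05. The median diet differences were -0.05 for spermatogonia (5 probes), -0.13 for meiotic cells and spermatids (11), 0.06 for Sertoli cells (9), -0.25 for Leydig cells (16), -0.01 for peritubular cells (7), 0.34 for macrophages (6) and 0.35 for the endothelium (2), and no red blood cell gene was named. Both endothelium probes are of PECAM1 and disagreed, with differences of -0.01 and 0.72. The list medians by boar, relative to the mean of all boars, ran from -0.82 to 0.89 on the supplemented and from -0.18 to 0.38 on the control diet for Leydig cells, the widest of the lists on the former diet, and from -0.24 to 0.12 on the control diet for the junction list. The part of the makeup of the tissue pieces in the members' values was not tested.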

How the data were processed

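Testis RNA of 8 boars was hybridized to Agilent porcine arrays with 1 colour. The authors deposited, per array, the spot intensity as Feature Extraction (10.5.1.1 per the file headers) wrote it, without normalization. A second deposited file holds log2 values, whose scale and normalization are not stated. For its 35258 probes it differed from the values used here by at most 0.056 (column medians 8.18), so it was taken as quantile-normalized log2 gMedianSignal. It holds 7 of the 8 member probes.

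Log2 gMedianSignal of 43803 spots was quantile-normalized (background not subtracted, gMedianSignal being the study's raw value), and replicate spots were averaged. Small changes of dim probes are thereby understated. A probe was present on an array with a signal above 25 and the flag gIsWellAboveBG, and in the testes with 50% of the arrays of a diet. Diets were compared with limma 3.58.1 in R 4.3.3 (lmFit, eBayes, two-sided, Benjamini-Hochberg), and the code was tested on simulated data. The number of arrays limits the precision.

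RefSeq accessions and the study's supplementary list, used for names only and not for its fold changes and p-values, named 3064 probes. Other probes stayed unnamed, and no sequences or positions of probes were at hand. Members, lists and tests were chosen with earlier results of these data known. Named are all members, list probes with P under 0.05 (at most 3 a list) and the 3 genes most like each member. CD9, JUP, GSK3B, AQP11, SLPI, CFTR, NPC2, RNASE10, UCHL1, PECAM1 and the second WFDC1 probe were named after their values were seen. Figures were drawn with matplotlib 3.10.9.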

Additional observations from a re-analysis of the deposited data

Results flagged for a closer look

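Of 42 groups of 4 boars, 2 held a boar far from the others of its diet, where chance gives about 2.1. The CDH1 probe A_72_P164631 was highest in m_9528 among the control boars, at 5.46 against 5.13 to 5.18, a gap of 0.851 of the range, from a spot with a raw signal of 58 over a local background of 23. The macrophage list median was highest in the control boar m_9600, at 0.67 against -0.45 to -0.39, a gap of 0.939 of the range.

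The diet difference of AQP9 (A_72_P077776) had opposite signs on the slides, 0.30 on slide 1 and -0.57 on slide 2, with both boars of a diet on the same side each time. The test of the difference between the slides gave an adjusted p = 0.99996 in limma, and the slide cannot be told apart from the litter of brothers.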

How the results depend on the processing

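The number of member probes with P under 0.05 was 1, the WFDC2 probe, with 1.86% of all present probes under 0.05. It was 2 with the background-subtracted signal (WFDC2 and the dim CDH1 probe, 2.76% of all present probes). It was 0 with normexp (1.94%) and 1 (CTNNB1) on slide 1 alone (6.44%). It was 4 (the 3 EPCAM probes and CTNNB1) with array weights (15.8%) and without the 2 dimmest arrays, m_9502 and m_9527 (11.7%). The array weights gave m_9502 the lowest weight, 0.316, and the other setting left it out. Since the genes were selected on low signals in m_9502, a shift is built into both settings, and their counts are a description only. With each boar left out the number of member probes ran from 0 to 4. It was 0 without m_9597 (1.54% of all present probes), m_9527 (1.18%) or m_9528 (0.917%). Without m_9599 it was 3, the EPCAM probes (1.91%), and without m_9502 it was 4 (16.6%). The lowest adjusted p of a member in any of these settings was 0.279 in limma. Over all present probes the number with P under 0.05, 689, became 5830 with array weights, 2381 on slide 1 alone, 359 on slide 2 alone and 4315 without the 2 dimmest arrays, and ran from 339 (without m_9528) to 6155 (without m_9502) with each boar left out, with 369 without m_9598, 438 without m_9527 and 1213 without m_9600. The cause was not tested.

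The directions of EPCAM, CTNNB1 and WFDC2 held in all 23 alternatives. That of AQP9 turned with array weights (0.0668) and on slide 1 alone (0.30), and that of CDH1 probe A_72_P043121 on slide 1 alone (0.0541) and without m_9528 (0.11, the range being -0.54 to 0.11 with each boar left out). The second CDH1 probe passed P under 0.05 with the background-subtracted signal only, and most of its spots were not well above background. The EPCAM gap of m_9502, -1.68, was -2.26 in the raw signal and between -1.69 and -1.61 under the other scalings. Chosen after seeing the data were the omission of the 2 dimmest arrays, the raw signal, the stricter presence (3 of 4 arrays) and the leaving out of spots marked as outliers. No paired analysis was possible because the labels give neither replicate numbers nor litters, and the numbers used here follow only the order of deposit. The paper states that the boars came from 3 litters and were divided at random between the diets within each. Which boars of slide 2 shared a litter is not stated, and the main fit took no account of litter. The slide as a block separates only the brothers from the other boars. With the slide as a block the number of member probes with P under 0.05 stayed at 1, with 1.96% of all present probes under 0.05.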
